A study of Rattus norvegicus with 6 samples.

Results

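The genes described here are the collagen chains, apart from those of type IV, and the enzymes, chaperones and processing proteins that turn them into fibrils. They were chosen by symbol: every probe set whose single annotated gene was a Col chain, a Lox, Plod, P4ha or P3h family member, or one of a short list of chaperones and processing proteins. The choice gave 82 probe sets of 55 genes, among 31042 probe sets and 14217 named genes on the array. Of these genes 36 encode chains and 19 encode proteins that modify, fold, trim or cross-link them. Loxl4, P3h2, Pcolce2 and Tll1 were not analysed here.

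RNA came from a pair of clonal rat cell strains, 3 arrays each, both isolated from bile duct cancers that grew in male Fischer 344 rats of young adult age after spontaneously transformed cholangiocytes (BDEsp cells) had been placed in the bile duct. BDEsp-TDECC, called TDECC from here on, is the cholangiocarcinoma cell strain. BDEsp-TDESM (TDESM) is the cancer-associated fibroblastic strain, described by its overexpression of Acta2, which read 6.61 in TDECC and 11.60 in TDESM. Each group is 1 clonal strain. Whether the arrays of a strain stand for different cultures is not recorded in the labels, and the p-values cover array-to-array spread alone, possibly technical. The labels of all 6 samples name an organotypic co-culture in a gel of diluted rat type I collagen and the TGF-beta inhibitors SB 431542 and LY2157299, without saying which cultures received them.

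A collagen molecule is a helix of intertwined chains built from short repeats rich in glycine and proline. In the endoplasmic reticulum prolines and lysines of the chains are hydroxylated, some lysines receive sugars, and the chaperone HSP47 holds the finished helix on its way out. Outside the cell the propeptides are cut off, fibrils assemble, and lysyl oxidases cross-link them. In bile duct cancer the dense fibrous stroma is made largely by activated fibroblasts.

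Sequences before the annotated starts are shown for 3 genes that were far higher in the fibroblastic strain and for Col18a1, the single gene that was lower. The windows in front of genes differing in opposite directions can thus be read side by side. Each run is the 250 bases before the start annotated by RefSeq (build GRCr8), written 5′ to 3′ on the gene's strand. Capitals mark matches, on either strand, to the TATA box TATAAA, to CCAAT as read by NF-Y, to GGGCGG as read by Sp1, or to CAGAC as read by Smad proteins. None of these motifs contains another.
Col1a2, chr4:33518307-33518556, plus strand: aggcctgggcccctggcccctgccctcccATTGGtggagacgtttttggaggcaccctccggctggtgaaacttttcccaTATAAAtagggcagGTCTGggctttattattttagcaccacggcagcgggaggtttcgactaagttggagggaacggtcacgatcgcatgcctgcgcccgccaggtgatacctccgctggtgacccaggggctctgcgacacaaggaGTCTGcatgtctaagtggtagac
Col5a2, chr9:55090152-55090401, minus strand: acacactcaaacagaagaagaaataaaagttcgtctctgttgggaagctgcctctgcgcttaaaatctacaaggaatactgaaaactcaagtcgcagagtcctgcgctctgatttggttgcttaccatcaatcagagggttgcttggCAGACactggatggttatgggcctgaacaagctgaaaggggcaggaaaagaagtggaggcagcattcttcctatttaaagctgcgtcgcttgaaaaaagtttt
Serpinh1, chr1:163062977-163063226, minus strand: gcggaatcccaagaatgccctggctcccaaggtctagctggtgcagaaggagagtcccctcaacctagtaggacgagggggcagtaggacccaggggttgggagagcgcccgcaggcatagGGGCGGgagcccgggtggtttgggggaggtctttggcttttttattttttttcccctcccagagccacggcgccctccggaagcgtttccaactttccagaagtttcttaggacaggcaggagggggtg
Col18a1, chr20:11473395-11473644, plus strand: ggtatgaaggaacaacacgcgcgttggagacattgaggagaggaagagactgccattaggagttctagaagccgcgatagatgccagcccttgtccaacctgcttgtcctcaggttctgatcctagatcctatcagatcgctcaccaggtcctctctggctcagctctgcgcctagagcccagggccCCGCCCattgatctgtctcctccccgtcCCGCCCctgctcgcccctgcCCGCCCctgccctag
The Col1a2 window held TATAAA 170 bases, an inverted CCAAT 221 bases, and inverted CAGAC 156 and 23 bases before the annotated start. The Col5a2 window held CAGAC once, the Serpinh1 window GGGCGG once, and the Col18a1 window GGGCGG at 3 places on the opposite strand. A window was listed for 42 of the 55 genes. These were counted by gene, whereas the background counted all listed windows, which outnumber the 14217 named genes on the array. The percentages set against that background thus compare unlike sets. Among those 42, GGGCGG occurred in 25 (59.5%), against 30.5% of all 33469 windows, CAGAC in 17 (40.5% against 42.9%), CCAAT in 8 (19.0% against 34.0%) and TATAAA in 5 (11.9% against 12.9%). GGGCGG stood before 18 of the 27 genes with a window that rose in TDESM and before 6 of the 14 that did not pass the test. These are matches of letters, not binding sites. Whether RNA begins at the annotated starts in these strains was not tested. Where it begins further upstream, as the distant TATAAA of Col1a2 leaves possible, part of a window is transcribed sequence and not promoter.

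Values are the authors' log2 RMA intensities, so a difference of 1 is a doubling. Levels of different probe sets cannot be compared, since each binds its target differently. The array medians lay between 5.80 and 5.86. Arrays of TDECC correlated at 0.974 to 0.976 across probe sets and those of TDESM at 0.994 to 0.997. As a rough guide to low readings, 43 marker genes of leukocytes, hepatocytes, striated muscle and neurons had a median of 4.46 in TDECC and 4.31 in TDESM, and their 90th percentiles were 6.14 and 6.31. This is no detection limit, since a few of these genes read high, Cd14 among them at 10.39 in TDECC. By markers, all 9 measured bile duct epithelial genes were lower in TDESM, and 8 of 11 fibroblast genes were higher, whereas Dcn and Fap, defining genes of many fibroblasts, stood at only 3.67 and 4.28 in TDESM. Of 9 endothelial genes 1 was higher, Flt1 (5.62 in TDECC and 7.47 in TDESM), and 1 lower, Pecam1 (3.80 in TDECC and 3.43 in TDESM). Of 12 leukocyte genes 0 passed limma's adjusted threshold and 2 had an unadjusted p under 0.05, with Ptprc at 3.68 and 3.80.

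Collagen genes were mostly higher in the fibroblastic strain, and some were far higher. A gene with several probe sets was counted by its brightest. Of the 55 genes 36 were higher in TDESM, 1 was lower and 18 did not pass (limma over all probe sets, adjusted p under 0.05). Over all genes taken in the same way 21.8% were higher and 20.3% lower. The median difference was 1.73, against 0.00 over all genes. By probe sets 58 of 82 were higher and 2 lower, where 17.9% and 19.0% of all probe sets were. At least 32-fold higher were 18 of the 55 genes (32.7%), against 1.47% of all genes. The arrays of both strains did not overlap for 40 of the 55 (72.7%), against 53.6% of all genes. Of the 19 enzymes and processing genes 17 rose, with a median difference of 5.74. Of the 36 chains 19 rose, with a median of 0.52. However, 17 of the 36 chains read at or under the 90th percentile of the low marker genes in both strains. Only 1 of the 19 enzymes and processing genes read that low in TDESM. With 3 against 3 arrays an exact permutation test cannot give a two-sided p below 0.1, which every gene with non-overlapping groups reached.

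**Figure D1:**
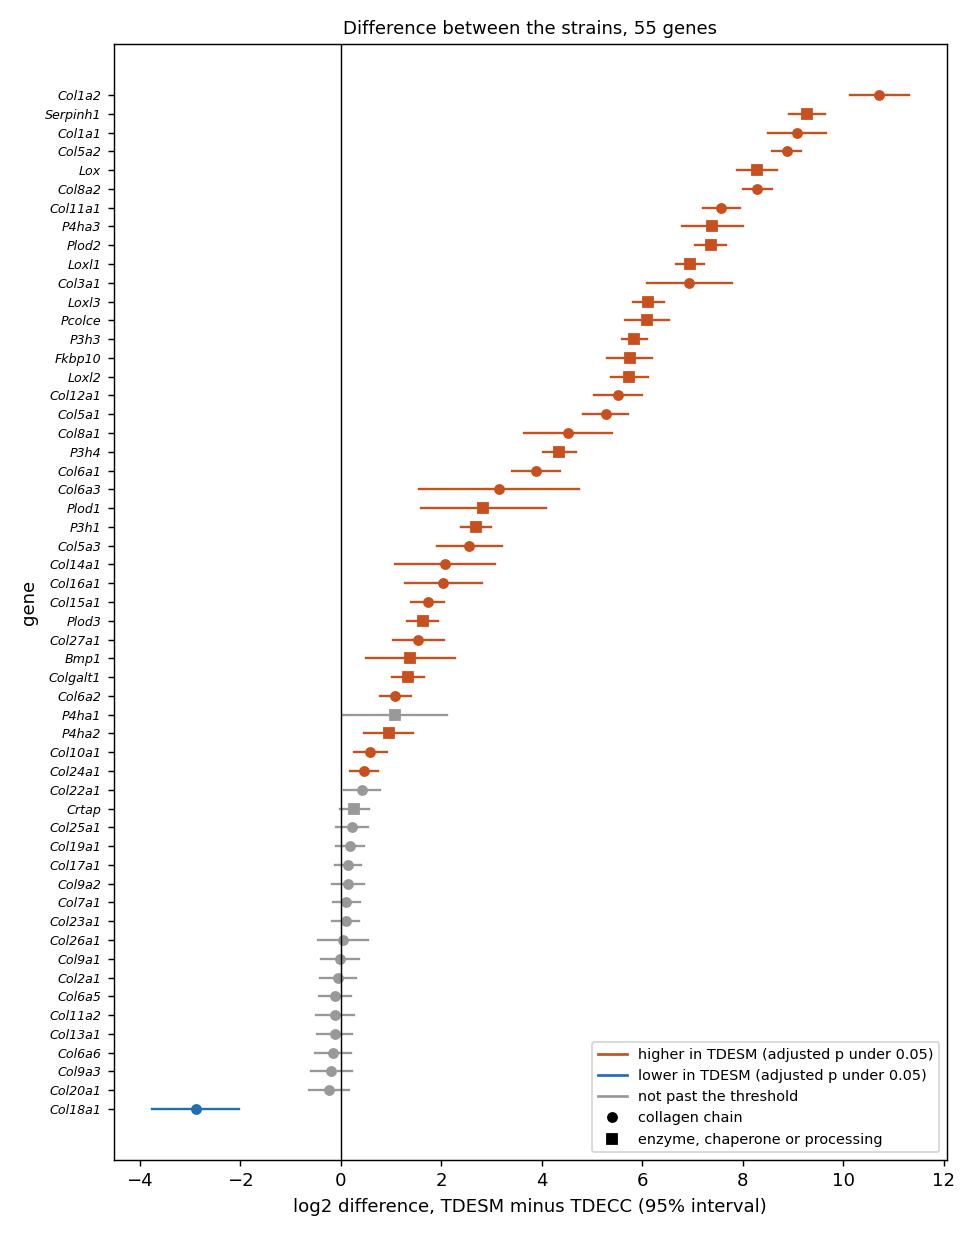
The log2 difference, TDESM minus TDECC, of the 55 genes (x axis) with its 95% limma interval (bars), 1 gene per row, circles for chains and squares for enzymes, chaperones and processing proteins. Differences run from 10.72 for Col1a2 to -2.89 for Col18a1, the only gene called lower, and 18 genes in grey did not pass the threshold.

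These directions rest on arrays scaled to the same distribution. When arrays were instead centred on poly-A control probe sets, whose means lay between 7.22 and 7.65 in TDECC and between 8.34 and 9.03 in TDESM, the median of all genes moved to -1.22, and of all gene calls 7.67% were higher instead of 51.7% (912 higher and 10986 lower). Of the 36 collagen genes that rose, 27 still rose there, 8 did not pass and 1, Col24a1, was lower. Of the 18 that had not passed, 17 were lower there and P4ha1 (-0.14) again did not pass. The controls' own spread between arrays (SD 0.23 in TDECC and 0.37 in TDESM, n = 3 each) enters every gene alike in that setting, and limma gave all probe sets 1 common spread, so its calls rest on a single shift of 1.22 shared by all genes. With arrays centred on housekeeping genes, 66.9% of calls were higher (4291 higher and 2121 lower) and 38 collagen genes rose. Of those 10 housekeeping genes 2 were themselves higher and 4 lower in the deposited scaling, with differences from -1.76 (Tfrc) to 0.89 (Gusb). All other differences use the deposited scaling, in which the median gene differed by 0.00.

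Fibrillar chains build the banded fibrils of skin, tendon and scar, and 9 of 11 were higher in TDESM (81.8%). Col1a1 and Col1a2 encode the chains of type I collagen, the main fibril of fibrous stroma. Col1a1 read 5.02, 4.18 and 5.04 on the TDECC arrays and 13.84, 13.92 and 13.72 on the TDESM arrays, a difference of 9.08 (SE 0.24, limma adjusted p = 5.18e-07). Col1a2 read 3.90, 4.07 and 3.11 against 14.42, 14.46 and 14.36, a difference of 10.72 (SE 0.25, limma adjusted p = 3.05e-07). Its TDECC mean, 3.69, lay under the median of the low markers and its TDESM values lay close to the highest reading of any probe set on those arrays, 14.75 to 14.76, so the difference is between readings near both ends of the scale.

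Col3a1, whose chain forms type III collagen and often shares fibrils with type I, read 6.18, 7.42 and 7.60 in TDECC and 14.02, 14.11 and 13.89 in TDESM (difference 6.94, SE 0.36). The groups did not overlap. The TDECC arrays spread more (SD 0.77 against 0.11), with the first array lowest.

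Type V chains nucleate fibrils and set their width. Col5a2 read 4.59, 4.45 and 4.71 against 13.47, 13.55 and 13.37, and Col5a1 read 5.82, 6.16 and 6.48 against 11.26, 11.51 and 11.51. Their differences were 8.88 (SE 0.12) and 5.27 (SE 0.19). Col5a3, the less widespread chain, differed by 2.56 (SE 0.27), from 5.28, 5.08 and 4.28 to 7.26, 7.36 and 7.69. Within each array the Col5a2 reading minus that of Col5a3 was 6.32 higher in TDESM (SD 0.63 in TDECC and 0.30 in TDESM, n = 3 each, exact two-sided permutation p = 0.1, the smallest possible).

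Type XI collagen is best known from cartilage, where it forms fibrils with type II. Col11a1 read 4.03, 4.07 and 4.33 in TDECC and 11.83, 11.85 and 11.48 in TDESM, a difference of 7.58 (SE 0.15). Its partner chain Col11a2 read 6.14, 6.20 and 6.45 against 6.16, 6.36 and 5.92, overlapping groups with a difference of -0.12 (95% interval -0.49 to 0.25). Col2a1, the type II chain, read 4.62, 4.14 and 4.25 against 4.28, 4.28 and 4.29 by its brightest of 3 probe sets, none of which passed. The type IX chains that decorate type II fibrils in cartilage, Col9a1, Col9a2 and Col9a3, differed by -0.01, 0.14 and -0.19, and none passed. Of 9 measured cartilage and bone markers 3 were higher in TDESM (33.3%, against 21.8% of all genes) and 0 were lower. The 3 were Acan, the large cartilage proteoglycan, by 5.63, Alpl by 0.79 and Comp by 0.71.

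Col27a1 and Col24a1, the most recently described fibrillar chains, also rose. Col27a1 read 4.91, 4.89 and 5.56 against 6.84, 6.71 and 6.44, a difference of 1.54 (limma adjusted p = 0.00130). Col24a1 read 3.38, 3.39 and 3.63 against 3.96, 3.96 and 3.87, low in both strains. Its difference of 0.46 (limma adjusted p = 0.0207) lost the threshold without TDECC replicate 2 (adjusted p = 0.0508), without TDESM replicate 1 (0.0790) or 2 (0.0807) and with the replicate number as a block (0.0711).

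**Figure D2:**
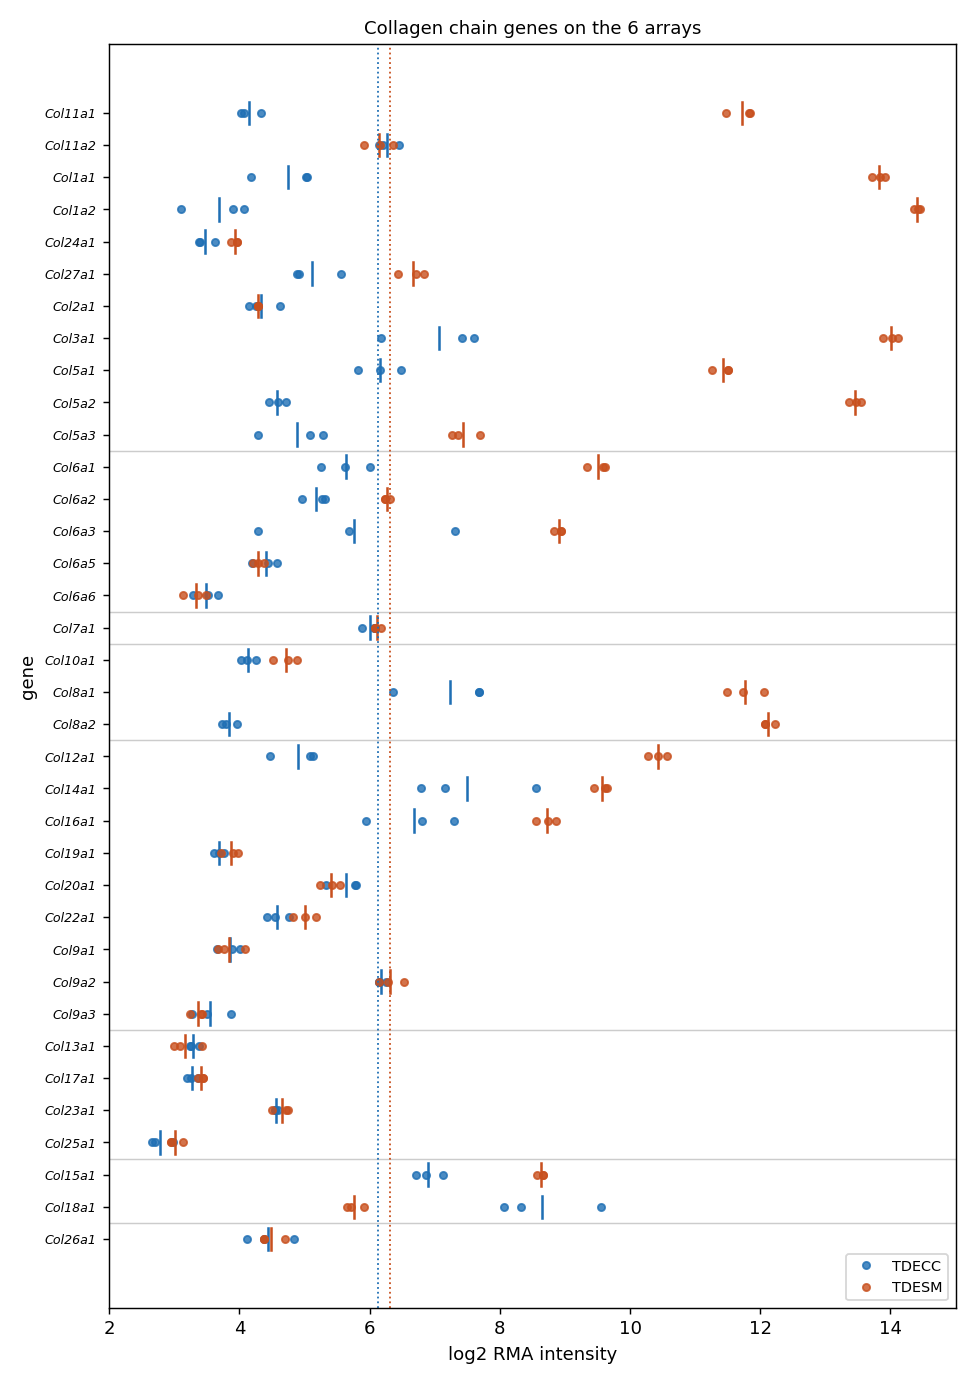
Log2 RMA intensity (x axis) of the 36 chain genes on each of the 6 arrays, by the brightest probe set of each gene; points are arrays, short bars group means, grey lines separate the kinds of chain, and dotted lines mark the 90th percentile of the low marker genes in TDECC (6.14) and TDESM (6.31). Widely separated points (Col1a2, Col5a2, Col8a2) and overlapping ones (the Col9 and transmembrane chains) stand in the same picture, and Col18a1 is reversed.

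Type VI collagen forms beaded filaments around cells, from Col6a1, Col6a2 and Col6a3 with rarer alternatives for the last. The 3 main chains rose and the alternatives Col6a5 and Col6a6 did not pass (-0.11 and -0.16). Col6a1 read 5.62, 5.26 and 6.01 against 9.34, 9.62 and 9.58 (difference 3.88, SE 0.20). Col6a3 read 4.29, 7.31 and 5.69 against 8.83, 8.94 and 8.94 (difference 3.14, SE 0.67, and 1.86 as the mean of both probe sets). Its TDECC arrays ranged over more than 3 log2 units, the widest spread among the 55 genes (SD 1.51), and its TDESM arrays barely differed (SD 0.06). Col6a2 rose by 1.09 (SE 0.13), and by 2.41 as the mean of both probe sets, but did not pass centred on the poly-A controls (-0.13).

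Network-forming type VIII chains, made by vascular and corneal endothelium and by activated mesenchymal cells, were high in TDESM. Col8a2 read 3.80, 3.97 and 3.73 against 12.07, 12.22 and 12.08, a difference of 8.29 (SE 0.12, limma adjusted p = 1.06e-07). Col8a1 read 7.68, 7.68 and 6.36 against 12.06, 11.74 and 11.49, a difference of 4.52 (SE 0.37). Col10a1, the chain of hypertrophic cartilage, was low in both, at 4.25, 4.11 and 4.03 against 4.75, 4.51 and 4.88. Its difference of 0.58 (limma adjusted p = 0.0146) no longer passed once TDESM replicate 1 (adjusted p = 0.0596) or 3 (0.0555) was left out. Centred on the poly-A controls Col10a1 did not pass either (-0.64). Col7a1, the anchoring fibril of epithelial basement membranes, read 6.06, 5.89 and 6.09 against 6.09, 6.18 and 6.09 and did not pass.

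Of the 9 chains that bind to the surface of fibrils 3 rose (33.3%, against 21.8% of all genes) and 6 did not pass. Col12a1, typical of tendon and wound stroma, read 5.09, 4.47 and 5.13 against 10.43, 10.57 and 10.27 (difference 5.53, SE 0.20, and 2.76 as the mean of its 3 probe sets). Col14a1 read 8.55, 7.16 and 6.79 against 9.45, 9.62 and 9.64 (difference 2.07, SE 0.42), with the first TDECC array nearest to TDESM. Col16a1 rose by 2.04. Col19a1, Col20a1 and Col22a1 did not pass, with differences of 0.18, -0.23 and 0.42. The groups of Col22a1 did not overlap, and it passed without TDECC replicate 3 (limma adjusted p = 0.0365), after cyclic loess (0.0340) and centred on housekeeping genes (0.0105), but was lower centred on the poly-A controls (-0.80).

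None of the 4 transmembrane chains passed limma's threshold, and 0 had an unadjusted p under 0.05. Col13a1, Col17a1, Col23a1 and Col25a1 had differences between -0.12 and 0.23. The brightest of them in TDECC, Col23a1, read 4.54, 4.54 and 4.59 against 4.74, 4.72 and 4.50. Col17a1, the hemidesmosome collagen of stratified epithelium, stood at 3.27 in TDECC and 3.42 in TDESM. Col26a1 read 4.11, 4.38 and 4.84 against 4.38, 4.70 and 4.38, with overlapping groups.

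The multiplexins, basement membrane chains that carry sugar chains, moved in opposite directions. Col18a1, whose end fragment is endostatin, read 9.56, 8.33 and 8.07 in TDECC and 5.66, 5.92 and 5.71 in TDESM. It was lower by 2.89 (SE 0.37, limma adjusted p = 8.62e-04), and both of its probe sets were lower. It was the only gene of the 55 to fall, a call kept without each array in turn. Col15a1 read 7.13, 6.71 and 6.86 against 8.66, 8.66 and 8.57, higher by 1.73 (SE 0.14, limma adjusted p = 9.18e-05), though with arrays centred on the poly-A controls its difference of 0.51 did not pass. The Col15a1 reading minus that of Col18a1, which a constant added to an array leaves unchanged, was 4.62 higher in TDESM (SD 0.62 in TDECC and 0.13 in TDESM, n = 3 each, exact two-sided permutation p = 0.1). The pair was chosen after its values were seen, as were the 7 other pairs compared, all with exact p = 0.1 and an adjusted p of 0.1.

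Type IV chains, the sheet-forming collagens of basement membranes, were compared because they are the nearest relatives left out by the choice of genes. Of 5 measured 3 rose (60%, against 21.8% of all genes): Col4a5 by 5.86, Col4a1 by 3.37 and Col4a2 by 1.24. Centred on the poly-A controls 2 were higher and 2 lower, and the median of 1.24 became 0.02. Col4a4 and Col4a6 differed by -0.19 and -0.00. As with the other chains, some family members stayed low in both strains.

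Prolyl 4-hydroxylases make the hydroxyproline that keeps the helix stable at body temperature, through 1 of 3 alternative catalytic subunits. The subunits differed in how much they separated the strains. P4ha3 read 3.95, 4.08 and 4.86 in TDECC and 11.83, 11.79 and 11.44 in TDESM, a difference of 7.39 (SE 0.26, limma adjusted p = 1.51e-06). P4ha1 read 10.57, 10.79 and 9.02 against 11.12, 11.27 and 11.24, with no overlap, and its difference of 1.08 (95% interval 0.05 to 2.12) did not pass (limma adjusted p = 0.0976). The third TDECC array was lowest, and P4ha1 passed without it (difference 0.53, adjusted p = 0.0203) and without TDECC replicate 2 (1.42, adjusted p = 0.0481), whereas centred on the poly-A controls its sign turned (-0.14). P4ha2 read 9.38, 9.07 and 8.58 against 9.89, 9.92 and 10.08 (difference 0.95, limma adjusted p = 0.0103, and 0.48 as the mean of both probe sets). Centred on the poly-A controls P4ha2 did not pass (-0.27). Within arrays P4ha3 minus P4ha1 was 6.31 higher in TDESM (SD 1.45 and 0.26, n = 3 each, exact permutation p = 0.1).

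Prolyl 3-hydroxylation is carried out by P3h1 with its partner Crtap, and P3h3 and P3h4 act in a complex with lysyl hydroxylase. P3h3 read 4.03, 4.12 and 4.12 against 9.87, 9.92 and 10 (difference 5.84, SE 0.11). P3h4 read 5.98, 6.36 and 6.14 against 10.41, 10.54 and 10.58 (difference 4.35, SE 0.14). P3h1 read 6.79, 6.61 and 6.53 against 9.26, 9.29 and 9.46 (difference 2.69, SE 0.12). Crtap read 4.54, 4.60 and 4.70 against 4.75, 5.01 and 4.89 by its single probe set, low in both strains, and did not pass (limma adjusted p = 0.128), though it did when centred on housekeeping genes (adjusted p = 0.0250) and, in the opposite direction, on the poly-A controls (-0.95).

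Lysyl hydroxylases prepare lysines for sugar attachment and for cross-links, and all 3 rose together with the galactosyltransferase Colgalt1. Plod2, which hydroxylates the chain ends and favours the stiff cross-links of scar, read 3.95, 3.75 and 3.97 against 11.29, 11.36 and 11.10 (difference 7.36, SE 0.13, limma adjusted p = 1.43e-07). Plod1 read 8.16, 8.53 and 6.34 against 10.39, 10.54 and 10.62 (2.84, SE 0.53), again with the third TDECC array lowest. Plod3 read 9.86, 9.55 and 9.53 against 11.23, 11.27 and 11.33 (1.63, SE 0.13). Colgalt1 rose by 1.34 (SE 0.14). The lysyl hydroxylases differed in how far they separated the strains: Plod2 minus Plod3 was 5.73 higher in TDESM within arrays (SD 0.18 in each strain, n = 3 each, exact permutation p = 0.1). With poly-A centring Plod3 and Colgalt1 did not pass (0.41 and 0.12).

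**Figure D3:**
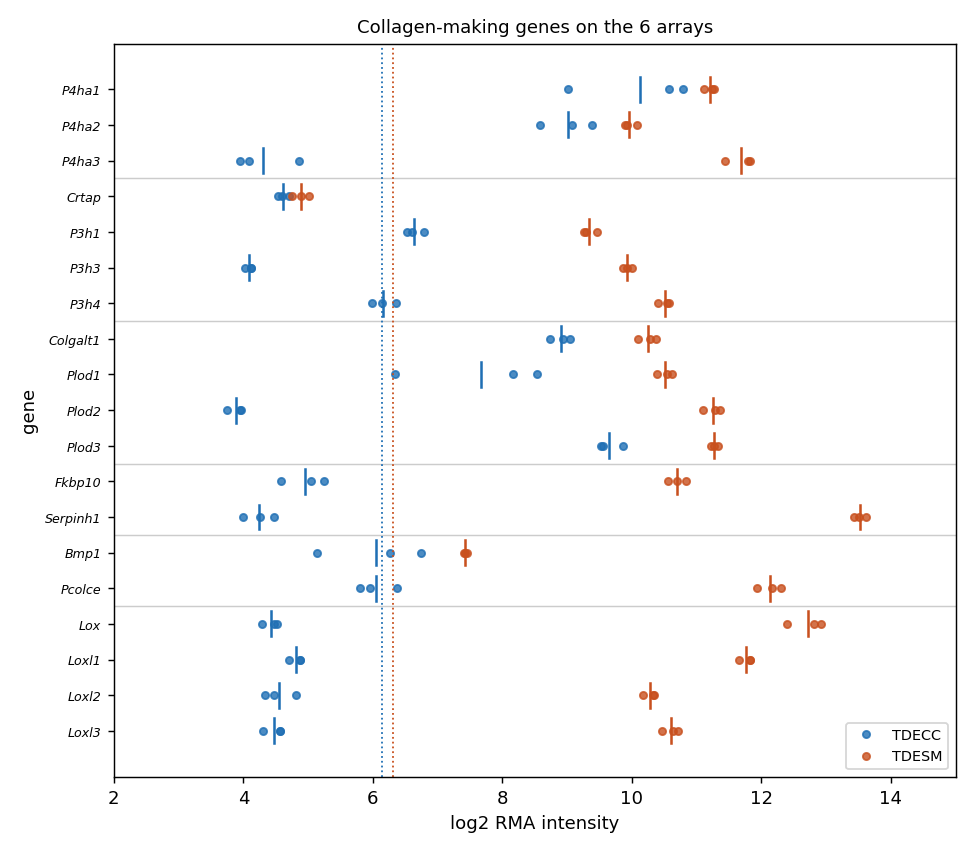
Log2 RMA intensity (x axis) of the 19 collagen-modifying, chaperone, processing and cross-linking genes on each of the 6 arrays, drawn as for the chains. All Lox family genes, P4ha3 and Plod2 lie left of the dotted lines in TDECC and right of 10 in TDESM, whereas P4ha1, P4ha2, Plod3 and Colgalt1 lie to the right of them in both strains.

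Both chaperones rose. Serpinh1, which encodes HSP47 and binds only folded procollagen, read 4.48, 4.0 and 4.26 against 13.43, 13.62 and 13.51 (difference 9.27, SE 0.15, limma adjusted p = 1.41e-07), though its other probe set differed by 0.97 and the mean of both by 5.12. Fkbp10, a prolyl isomerase that also serves lysyl hydroxylation, read 5.24, 5.04 and 4.58 against 10.56, 10.70 and 10.84 (5.75, SE 0.19). Of the propeptide-cutting genes, Pcolce, the enhancer protein that speeds the cut, read 5.95, 5.80 and 6.38 against 11.94, 12.16 and 12.31 (6.09, SE 0.18). Bmp1, the protease itself, read 6.27, 5.14 and 6.74 against 7.42, 7.46 and 7.41, a smaller difference of 1.38 (limma adjusted p = 0.0253). Its call was lost without any 1 TDESM array (adjusted p = 0.0765, 0.0861 and 0.0823 without replicates 1, 2 and 3) and when centred on the poly-A controls.

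All 4 measured cross-linking enzymes rose by more than 32-fold. Lox read 4.29, 4.52 and 4.47 against 12.93, 12.82 and 12.40 (difference 8.29, SE 0.17), and Loxl1, better known from elastic fibres, read 4.87, 4.88 and 4.70 against 11.66, 11.83 and 11.82 (6.95, SE 0.12). Loxl3 and Loxl2 rose by 6.12 and 5.74. TDECC readings of the 4 genes lay between 4.29 and 4.88, and the TDESM readings between 10.18 and 12.93.

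Several probe sets read 19 of the 55 genes, and in 17 of them all probe sets had the same call. In 2, Col6a3 and P4ha2, one passed and the other did not, and in 0 were calls opposite. The size of the difference depended on the probe set in 6 genes, by more than 2 log2 units. The second Serpinh1 probe set stood at 2.88 against 3.85, a difference of 0.97 in place of 9.27. The brighter probe set is of the type that can also bind related transcripts. Col12a1 ranged from 0.53 to 5.53 over 3 probe sets, Col11a1 from 3.76 to 7.88, Col6a2 from 1.09 to 3.74, Col6a3 from 0.58 to 3.14 and Loxl2 from 5.74 to 7.78. The second probe set of P4ha2 differed by 0.01. For Col1a1, Col1a2, Col5a2 and Lox the probe sets differed by 0.13 to 0.50.

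**Figure D4:**
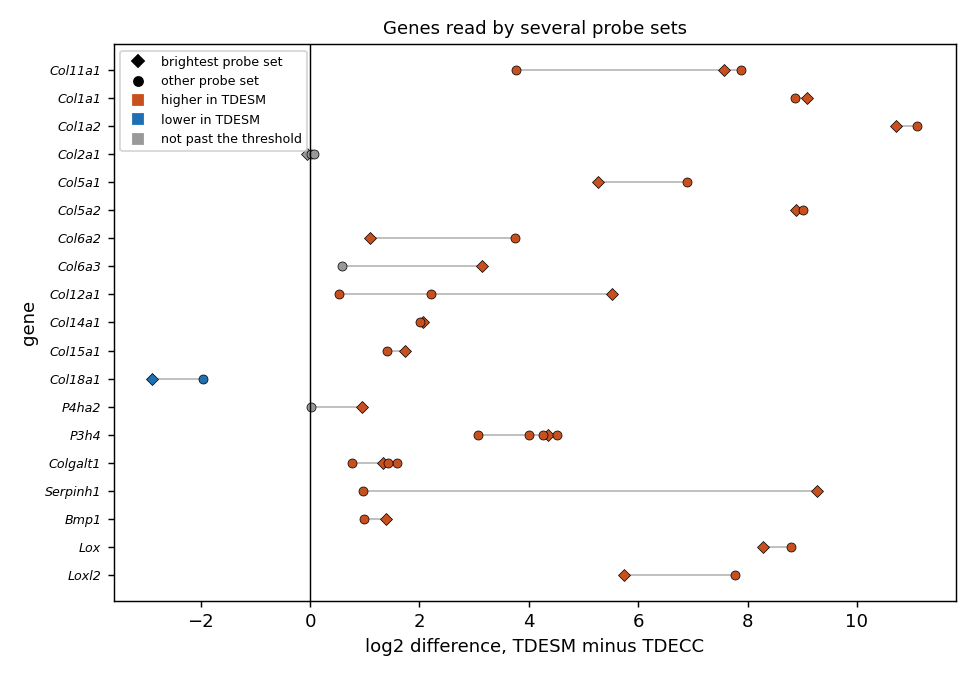
Log2 difference, TDESM minus TDECC (x axis), of every probe set of the 19 genes with several, 1 gene per row; diamonds mark the brightest probe set, circles the others, and colour the limma call. Serpinh1 spans 0.97 to 9.27, whereas the probe sets of Col1a1, Col1a2, Col5a2 and Lox lie close together, and no gene has calls on both sides of 0.

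The spread between arrays was not equal in both strains. The SD was larger in TDECC for 42 of the 55 genes (76.4%, against 77.2% of all genes), and exceeded 0.5 in 11 genes (20.0%, against 15.2% of all genes) in TDECC and in 0 in TDESM. The TDECC arrays did not share 1 order: P4ha1 and Plod1 were lowest on the third, Col3a1 and Col6a3 on the first, and Col14a1 and Col18a1 were highest on the first. These genes were picked after their values were seen.

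Some of the genes lie next to each other in the RefSeq gene order. Col3a1 and Col5a2, neighbours on chromosome 9, both rose (6.94 and 8.88), as did P3h4 and Fkbp10 on chromosome 10 (4.35 and 5.75) and Col6a1 and Col6a2 on chromosome 20. Col9a1 and Col19a1, neighbours on chromosome 9, and Col6a5 and Col6a6 on chromosome 8 did not pass.

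Beyond the chains and their dedicated enzymes, genes on which collagen output depends were counted by list, against the 21.8% higher and 20.3% lower among all genes. In the endoplasmic reticulum 18 of 25 folding and export genes rose and 1 fell (72.0% higher), with a median difference of 0.83. After poly-A centring 6 rose, 5 fell and the median was -0.39. Fkbp9 and Fkbp14, prolyl isomerases, rose by 5.44 and 4.07. P4hb, the shared subunit of prolyl 4-hydroxylase, rose by 0.84 from an already high 12.09 (picked after its values were seen). Mia2, an export receptor, fell by 1.55. Of 12 genes listed for proline and glycine supply 5 rose (41.7%) and 0 fell. The largest rises were those of Slc7a5 (2.10), a transporter of large neutral amino acids and not of proline or glycine, and Aldh18a1 (1.43), which starts proline synthesis. Of 7 cofactor genes 4 rose (57.1%), led by the zinc transporter Slc39a13 (2.76) and the vitamin C transporter Slc23a2 (1.61), and 0 fell. The medians of the supply and cofactor lists, 0.57 and 0.73, were -0.66 and -0.49 centred on the poly-A controls. Of the 2 measured meprin genes, Mep1a and Mep1b, proteases that can also trim propeptides, 0 passed limma's threshold and 1 had an unadjusted p under 0.05.

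Of 17 fibril-binding proteins 13 rose (76.5%) and 0 fell, their median being 4.03, or 2.81 after poly-A centring, Postn by 10.41 and Fn1 by 9.67 the most. Dcn, decorin, a regulator of fibril width, was low in both strains (3.87 in TDECC and 3.67 in TDESM), and Bgn, biglycan, its close relative, rose by 6.96. These 2 proteoglycans were chosen with their values known. Of 10 listed collagen receptor genes 5 were measured, and all 5 rose (3 centred on the poly-A controls), Itga11 by 6.65 and Ddr2, a receptor kinase for fibrillar collagen, by 5.06. Of 11 genes listed as collagen-degrading proteases 5 rose (45.5%), Mmp16 by 5.08 and Mmp2 by 4.74 the most. The 1 that fell (9.09%), by 1.33, was Prep, which cuts short peptides and not whole collagen. The median of the list, 0.40, was -0.82 centred on the poly-A controls. Mmp13 had a mean of 6.46 in TDECC, with an SD of 2.63 over the 3 arrays, against 3.79 in TDESM, and did not pass (picked after its values were seen).

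Of 17 regulators of collagen genes 11 rose and 2 fell (64.7% and 11.8%), and the median of 1.07 became -0.16 after poly-A centring. Tgfb3 and Tgfb2, ligands that raise collagen transcription, rose by 5.17 and 3.80. Cebpb and Runx1 fell by 0.92 and 0.82. Creb3l1, a membrane-bound factor that drives type I collagen genes, rose by 3.48 and Scx, scleraxis, by 1.60 (both picked after their values were seen). What part the labelled TGF-beta inhibitors or the collagen gel had in any of these levels was not tested, since the labels do not separate treated from untreated samples.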

How the data were processed

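The authors deposited 1 log2 intensity per probe set and array, computed by RMA according to the submitters' processing notes; version, software and background setting are not given in the sources used here. This method brings arrays to a common distribution, which removes differences in total mRNA between strains. Labels give Trizol RNA and biotin-labelled cRNA. Groups came from sample titles. In R 4.3.3 with limma 3.58.1 (lmFit and eBayes), TDESM minus TDECC was tested for all 31042 probe sets that are not controls, with no filter on dim ones, as a two-sided test at a threshold of 0.05 after Benjamini-Hochberg adjustment across them. Platform annotation named 1 gene for 20826 probe sets, several for 436 and none for 9780; 99.7% of named ones were found in RefSeq (GRCr8) and 0 symbols changed. A gene was taken by its brightest probe set. Of 223 symbols in the other lists 193 were measured. The number of arrays limits precision. No 2 arrays shared more than 5.75% identical values.

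The genes and lists were chosen with earlier results of these data known. Given array by array are all fibrillar chains and, in every other role, the 2 largest differences each way past the threshold and the gene brightest in TDECC. From other lists the 2 largest each way are named. Further names from those lists were chosen after their values were seen. The fit was first tested on simulated data. Alternatives were cyclic loess, centring on 10 housekeeping genes or on 24 poly-A control probe sets, leaving out the dimmest 33.3%, the replicate block, trended and robust eBayes, 1 probe set or the mean of all probe sets per gene, a minimum log2 difference of 1, and each array left out in turn.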

Additional observations from a re-analysis of the deposited data

How the results depend on the processing

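Cyclic loess, trend and robust eBayes, 1 probe set per gene and leaving out each array changed no count of collagen genes by over 1.5 times. The median difference of the collagen genes, 1.73, was 1.95 centred on housekeeping genes, 1.86 with the mean of all probe sets, 4.12 without the dimmest 33.3% of probe sets (40 of the 55 genes left) and 1.64 to 1.76 leaving out each array. The dim filter used the mean over all arrays. It kept genes bright in a single strain and dropped genes low in both, so the rise to 4.12 is built into the filter. Centred on the poly-A controls it was 0.51, with 19 genes and 23 probe sets lower, and 26771 probe sets differed in place of 11470; a minimum log2 difference of 1 left 6803. Signs that turned there were those of P4ha1 (-0.14, not past the threshold either way) and of Col24a1 (-0.76), Col10a1 (-0.64), P4ha2 (-0.27), Col6a2 (-0.13), Col7a1 (-1.11), Col9a2 (-1.08), Col17a1 (-1.08), Col19a1 (-1.04), Col22a1 (-0.80), Col23a1 (-1.12), Col25a1 (-0.99), Col26a1 (-1.18) and Crtap (-0.95). Of these, Col10a1, P4ha2 and Col6a2 also lost their calls. Calls of Col15a1, Col27a1, Plod3, Colgalt1 and Bmp1 were lost without a turn of sign. Whether the poly-A controls or the deposited scaling is nearer to the RNA per cell was not tested. With the replicate block 35 genes rose, 1 fell and only the Col24a1 call was lost among the 55; same-numbered arrays did not deviate together (correlations of -0.04, -0.01 and -0.09), so the numbers were not taken as pairs.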
